A study of Arabidopsis thaliana with 6 samples.

Results

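A small set of leaf-expressed genes, 124 of the 15541 in the normalized table, stood in GmWRI1 cells at under 50% of their level in mCHERRY cells. A gene was selected on these same libraries when its mCHERRY mean was at least 5, its GmWRI1 mean was under 50% of the mCHERRY mean, and all 3 GmWRI1 values lay below all 3 mCHERRY values. Chloroplast and mitochondrial genes and 1 nuclear gene (set aside by the rule) were left out. Values are TMM-scaled CPM, that is, reads per 1000000 of a library size adjusted by the trimmed mean of M-values. Because the values below chose the genes, their differences are given as a description and carry no test.

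The cells were Arabidopsis thaliana Col-0 mesophyll protoplasts, leaf cells freed of their walls. The GmWRI1 group (n = 3) received 35S:GmWRI1-A, in which a viral promoter active in most plant cells drives a soybean WRINKLED1 gene, and the mCHERRY group (n = 3) received 35S:mCHERRY, which encodes a red fluorescent protein. Both were kept for 16 h before harvest, so the measurements describe a transient, short exposure of leaf cells. The 3 libraries of a group were labelled as biological replicates, with no further word on separate plants.

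WRINKLED1 is an AP2-type transcription factor known for switching on fatty acid synthesis in seeds. Leaf protoplasts have been wounded by enzymes, and they are known to carry active stress, defence and jasmonate programs. Of the 124 genes, 27 were on 1 of the pathway lists used here, which cover phosphate starvation, stress, hormone and defence responses and the cell cycle, and 97 were on none. The lists were drawn up as the wider pathways of functions seen among the lowered genes. A surplus of lower calls on a list was thus favoured in advance, and counts on the lists are a description only.

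The libraries held 4950522 to 11748328 gene counts in the GmWRI1 group and 4155836 to 8227115 in the mCHERRY group. Mesophyll markers were present in all libraries, with a summed level of 667 to 751 CPM in GmWRI1 and 252 to 257 CPM in mCHERRY libraries. The Rubisco gene RBCS1A had the widest difference, with means of 331 CPM in GmWRI1 and 43.4 CPM in mCHERRY libraries. LHCB2.1, RCA and GAPA were also higher in GmWRI1 libraries, while CA1 was not (means of 52.9 CPM in GmWRI1 and 59.5 CPM in mCHERRY libraries). The guard cell list summed to 494 to 693 CPM in GmWRI1 and 576 to 758 CPM in mCHERRY libraries, and its myrosinase gene TGG1 made up nearly all of this (means of 599 CPM in GmWRI1 and 688 CPM in mCHERRY libraries), while MYB60, a defining gene of guard cells, did not exceed 0.245 CPM in any library. The epidermis list summed to 3.84 to 7.45 CPM in GmWRI1 and 1.23 to 1.98 CPM in mCHERRY libraries. The phloem list summed to 234 to 329 CPM in GmWRI1 and 31.4 to 34.3 CPM in mCHERRY libraries, and of it the proton pump gene AHA3 averaged 268 CPM in GmWRI1 and 32.3 CPM in mCHERRY libraries, while the defining sucrose carrier gene SUC2 did not exceed 0.256 CPM in any library. Xylem markers summed to at most 0.414 CPM in GmWRI1 and 1.73 CPM in mCHERRY libraries. The part of these marker levels in the results was not tested, and in bulk RNA fewer cells of a type and less RNA per cell cannot be told apart.

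The 124 genes were 1.1% of the 11317 nuclear genes with a mCHERRY mean of at least 5. Of those 11317 genes, 25.5% had all GmWRI1 values below all mCHERRY values at any fold. With edgeR's quasi-likelihood test, 118 of the 124 passed an adjusted p under 0.05 with a log2 fold change below -1, against 1.45% of all 14762 genes tested. Since the rule used the same contrast, nothing is read from that count. The 6 that did not pass were BBX18, DMP1, AT1G77480, AT4G33770, AGD13 and PERK13. A further 96 genes were called lower without meeting the rule, of which 81 had a mCHERRY mean under 5, 7 had a ratio of 50% or more, 4 overlapped between groups, 3 were organelle genes and 1 was the gene set aside.

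**Figure D1:**
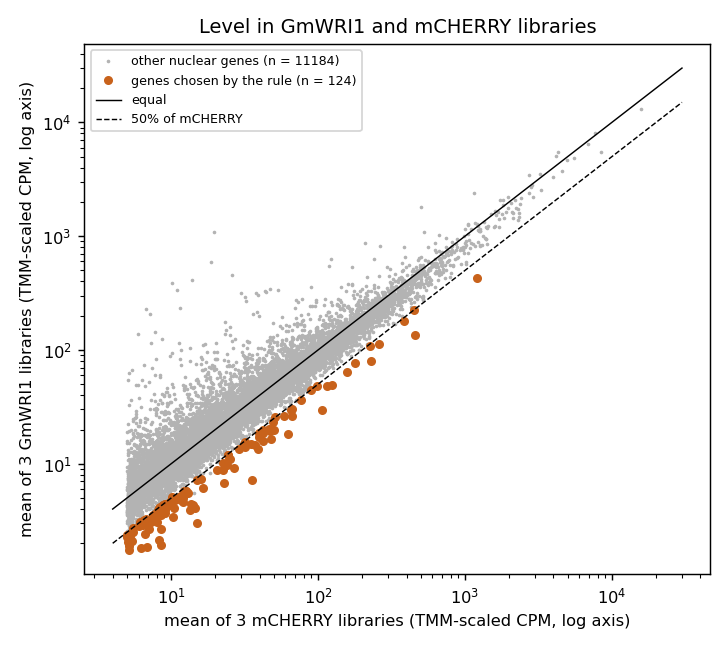
Mean level of each nuclear gene with a mCHERRY mean of at least 5, in GmWRI1 libraries (vertical axis) against mCHERRY libraries (horizontal axis), both in TMM-scaled CPM on log axes. The 124 genes (orange) lie below the dashed line of 50% and run from mCHERRY means of 5.03 to 1208 CPM, with the other genes in grey.

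Most of the lowered genes sat close to the limit, and few lay far below it. The GmWRI1 mean was 20.1% to 49.9% of the mCHERRY mean, with a median of 44.5%. Only 3 genes were under 25%, whereas 52 were at 45% or above. Levels in mCHERRY libraries had a median of 12.03 CPM, against 27.7 CPM over nuclear genes with a mean of at least 5. There were 53 genes with a mCHERRY mean under 10 CPM and 12 with a mean of 100 CPM or more.

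The genes just inside the ratio limit were AIG2 at 49.88%, AT3G28950 at 49.85% and PERK13 at 49.81%. Those just outside were the kinase gene NEK5 at 50.02%, the nuclear envelope gene WIP3 at 50.22% and the glycosyltransferase gene GATL10 at 50.24%. By level, AT5G65170 (5.03 CPM), IWS2 (5.03 CPM) and MYB4 (5.11 CPM) were just inside, and CTF7 (4.99 CPM), IDL1 (4.83 CPM) and AT1G75960 (4.82 CPM) just outside.

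**Figure D2:**
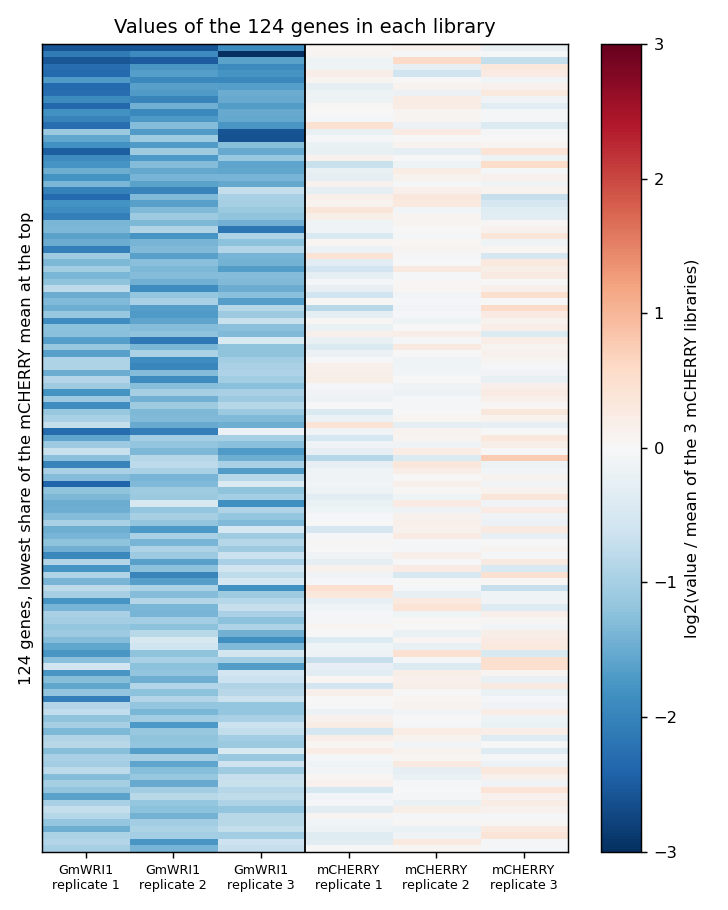
Values of the 124 genes (rows, lowest GmWRI1 share at the top) in the 3 GmWRI1 and 3 mCHERRY libraries (columns), as log2 of the value over the mean of the mCHERRY libraries. Cells of the GmWRI1 libraries are blue except where a value lies close to the mCHERRY mean, and GmWRI1 replicate 3 is the palest of its group in 59 of 124 rows.

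The spread between replicates was wider than over all genes at 5 CPM or more, but the lowered genes also had lower levels, with a median mean of 4.79 CPM in GmWRI1 and 12.03 CPM in mCHERRY libraries, and genes of like level were not compared. The median coefficient of variation was 23.2% in GmWRI1 and 15.2% in mCHERRY libraries, against 9.89% in GmWRI1 and 9.89% in mCHERRY libraries over nuclear genes with a mean of at least 5. GmWRI1 replicate 3 was the highest of its group in 59 of the 124 genes (47.6%), against 35.0% of those nuclear genes. The summed level of the 124 genes was 2447, 2367 and 2678 CPM in GmWRI1 libraries, against 6065, 6191 and 6201 CPM in mCHERRY libraries.

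The P1BS motif, GNATATNC, is the sequence bound by PHR1, the main activator of phosphate-starvation genes. Among the 6 lowered phosphate-starvation genes, 4 had it within 500 bases upstream of the annotated start (TAIR10.1, RefSeq). It was there in 10.5% of the 15397 nuclear genes of the table. The W Box, TTGACC or TTGACT, was also upstream in 4 of the 6, and in 45.5% of those nuclear genes. The P1BS windows are shown because they are a feature the rule did not use, and the capitals mark P1BS.
SPX3, chr2:18606186-18606215, plus strand, motif 213 bases upstream: tattagagaccGAATATGCcagaggatttg
SPX3, chr2:18606309-18606338, plus strand, motif 90 bases upstream: gctaaagctaaGCATATCCgctttcatatt
PHT1;5, chr2:13930220-13930249, minus strand, motif 475 bases upstream: atttttgtaagGTATATTCttatagattct
NPC4, chr3:845297-845326, minus strand, motif 219 bases upstream: cttgaaaaagtGAATATTCttgacacagac
PEPC1, chr1:6092371-6092400, minus strand, motif 362 bases upstream: ataaataggtgGAATATTCtttttttttat

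By role, the lowered genes comprised 14 in transcription, 14 in defence or as receptors, 14 in metabolism, 11 in detoxification and redox, 10 kinases, phosphatases and cell cycle genes, 9 in transport, 8 chaperones, 6 of the phosphate-starvation response, 6 of the cell wall, 6 tied to ubiquitin and 3 repeat proteins. A further 23 had another role or no known function, with shares of 28.1% to 49.3%. Roles and families were assigned from the annotated products after the values were seen. By chromosome, 32, 27, 16, 23 and 26 of the genes lay on chromosomes 1 to 5, against 26.4%, 15.3%, 20.0%, 15.2% and 23.1% of nuclear genes with a mean of at least 5.

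The phosphate-starvation response held 6 of the lowered genes. It is the program by which plants short of phosphate take up more of it, release it from other molecules and replace membrane phospholipids by galactolipids and sulfolipids. They comprise SPX sensors, a transporter, a phosphatase and enzymes of lipid exchange. Their share of the mCHERRY mean had a median of 31.9% and ran from 25.7% to 47.9%.

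SPX1 and SPX3 encode SPX-domain proteins, which bind inositol phosphates and hold PHR1 back when phosphate is plentiful. SPX1 (AT5G20150) had 99.2, 111 and 117 CPM in GmWRI1 libraries, against 248, 230 and 204 CPM in mCHERRY libraries. SPX3 (AT2G45130) was far lower in level, with 1.71, 2.48 and 2.22 CPM in GmWRI1 libraries, against 7.60, 6.97 and 10.4 CPM in mCHERRY libraries. The means were 47.9% of mCHERRY for SPX1 and 25.7% for SPX3. Their coding sequences were 63.6% identical over 693 aligned bases.

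NPC4 (AT3G03530), a phospholipase C that removes the head group from phospholipids, had 5.72, 6.89 and 7.87 CPM in GmWRI1 libraries, against 22.4, 24.0 and 22.0 CPM in mCHERRY libraries. MGDC (AT2G11810, also called MGD3), a synthase of the galactolipid monogalactosyldiacylglycerol, had 3.93, 2.62 and 1.41 CPM in GmWRI1 libraries, against 7.35, 10.1 and 8.16 CPM in mCHERRY libraries. In both, the GmWRI1 mean was near 30% of the mCHERRY mean (29.9% for NPC4 and 31.1% for MGDC), with a wide gap between the groups in NPC4.

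PHT1;5 (AT2G32830), a phosphate transporter of the plasma membrane, had 10.5, 8.82 and 9.69 CPM in GmWRI1 libraries, against 23.52, 24.5 and 24.2 CPM in mCHERRY libraries. PEPC1 (AT1G17710), annotated as a phosphatase of the pyridoxal phosphate type, had 4.61, 6.48 and 2.22 CPM in GmWRI1 libraries, against 13.4, 13.8 and 13.6 CPM in mCHERRY libraries. The mCHERRY libraries agreed closely for both genes (SD of 0.498 CPM for PHT1;5 and 0.215 CPM for PEPC1, n = 3), while PEPC1 varied more in the GmWRI1 group (SD 2.13 CPM, n = 3).

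The wider list of 35 phosphate-starvation genes had 28 that were tested. Of these, 17 passed an adjusted p under 0.05 in the lower direction and 3 in the higher direction (edgeR), where 14.6% and 20.4% of all genes tested did. The median log2 fold change of the list was -0.51, beside -0.01 over all genes tested. Those 17 included the 6 described above, which the rule chose on the same values. The list was drawn up around functions seen among the lowered genes, so the count of lower calls is a description only. These 6 were also the list's calls with a log2 fold change below -1, against 1.45% of all genes tested. Calls above 1 numbered 2 of 28, against 9.44% of all genes tested. Among genes outside the rule, PS2, a phosphatase that responds to phosphate starvation, had 44.4, 43.4 and 39.2 CPM in GmWRI1 libraries, against 89.8, 76.0 and 70.4 CPM in mCHERRY libraries (log2 fold change -0.89, SE 0.11, edgeR adjusted p = 1.52e-06). The phosphate transporter gene PHT1;1 (-0.79), the phospholipase D gene PLDP2 (-0.77) and the sulfolipid synthesis gene SQD1 (-0.74) also passed with adjusted p-values of 0.000287, 7.15e-07 and 1.75e-06 (edgeR).

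Not all of this list was lower. LPR1, a ferroxidase acting in root growth on low phosphate, had 9.73, 11.2 and 9.29 CPM in GmWRI1 libraries, against 0.613, 0.649 and 0.247 CPM in mCHERRY libraries (log2 fold change 4.18, SE 0.35, edgeR adjusted p = 3.73e-09). SPX4, a further SPX-domain gene, had 9.13, 5.93 and 7.67 CPM in GmWRI1 libraries, against 1.72, 3.57 and 3.21 CPM in mCHERRY libraries (log2 fold change 1.49, SE 0.30, edgeR adjusted p = 0.000498). The ribonuclease gene RNS1 was higher as well (0.43, edgeR adjusted p = 0.000652).

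**Figure D3:**
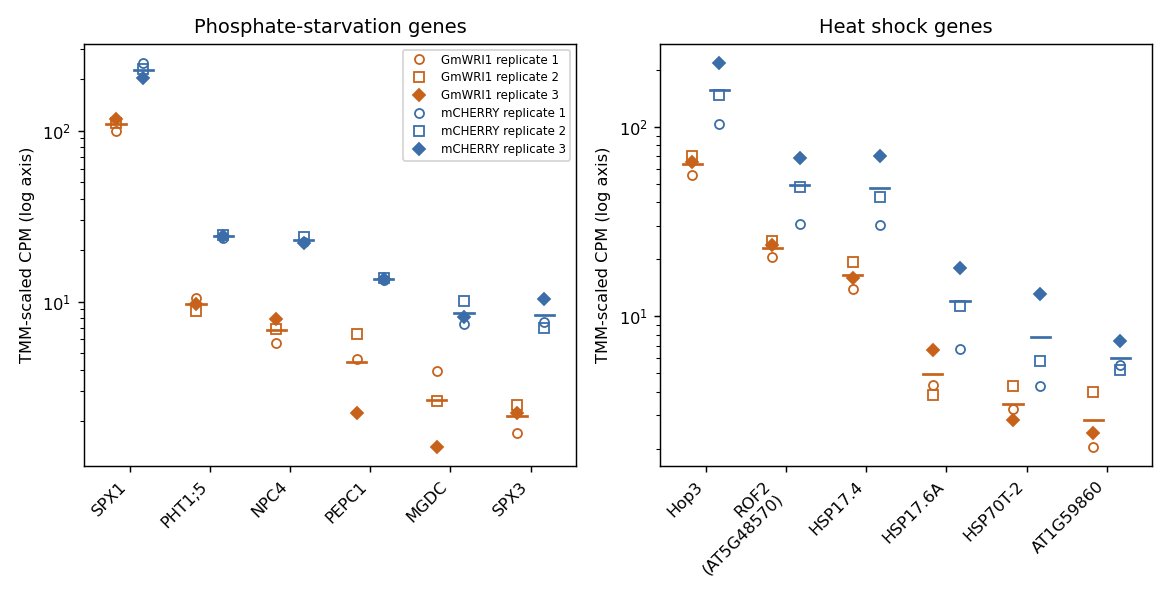
Level of the lowered phosphate-starvation genes (left panel) and heat shock genes (right panel) in each library, in TMM-scaled CPM on a log axis, with GmWRI1 in orange left of mCHERRY in blue and bars at group means (n = 3). By the rule that chose the genes, the groups are apart in every gene of both panels. In the heat shock genes mCHERRY replicate 3 (filled diamond) is the highest library in 6 of 6.

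Chaperones formed a further group, with 8 genes of the cytosol and the endoplasmic reticulum. Heat shock proteins bind unfolded proteins, and their genes are switched on by heat shock factors through elements built from GAA and TTC. HSP17.4 (AT3G46230), a small heat shock protein gene, had 14.0, 19.4 and 16.0 CPM in GmWRI1 libraries, against 30.3, 42.8 and 70.7 CPM in mCHERRY libraries. It was the heat shock gene with the lowest share (34.4%). It held the form GAANNTTC at 2 places within 500 bases upstream, and was the 1 heat shock gene of 6 with a match there. The form was upstream in 3 of the 6 phosphate genes and in 19.1% of the 15397 nuclear genes of the table. Other arrangements of GAA and TTC were not searched, so a gene without a match may still hold an element. The 2 places in HSP17.4 are shown here with GAANNTTC in capitals.
HSP17.4, chr3:16984948-16984977, minus strand, element 125 bases upstream: ccatcaacataGAAGCTTCttgaagccacc
HSP17.4, chr3:16984867-16984896, minus strand, element 44 bases upstream: agaagaaacctGAAATTTCaagaaacttgc

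Hop3 (AT4G12400), a co-chaperone that links HSP70 to HSP90, had 56.0, 70.2 and 65.6 CPM in GmWRI1 libraries, against 104, 148 and 217 CPM in mCHERRY libraries. ROF2 (AT5G48570), an FKBP-type isomerase that binds HSP90, had 20.5, 24.95 and 23.8 CPM in GmWRI1 libraries, against 30.6, 48.3 and 68.5 CPM in mCHERRY libraries. In both, the mCHERRY libraries were spread widely while the GmWRI1 libraries lay close together.

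The remaining heat shock genes were low in level. HSP17.6A (AT5G12030), a small heat shock protein gene, had 4.35, 3.86 and 6.66 CPM in GmWRI1 libraries, against 6.74, 11.3 and 18.04 CPM in mCHERRY libraries. HSP70T-2 (AT2G32120), a truncated HSP70, had 3.24, 4.27 and 2.83 CPM in GmWRI1 libraries, against 4.29, 5.84 and 13.1 CPM in mCHERRY libraries. For HSP70T-2 the highest GmWRI1 value reached 99.7% of the lowest mCHERRY value, the narrowest gap among the 124 genes. AT1G59860, a further HSP20-like gene, had 2.05, 3.998 and 2.42 CPM in GmWRI1 libraries, against 5.51, 5.19 and 7.41 CPM in mCHERRY libraries.

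One library weighed heavily in this group. Replicate 3 of mCHERRY, the library with the fewest counts (4155836), was the highest of its group in 6 of the 6 lowered heat shock genes and in 18 of the 21 tested genes of the heat shock list (85.7%), against 37.2% of nuclear genes with a mean of at least 5. Without it, 5 of the 6 were at 50% or more of the mCHERRY mean, from 50.6% for Hop3 to 68.1% for HSP70T-2, and HSP17.4 was at 45.1%. Of the 21 tested genes on the list, 7 were called lower by edgeR at a log2 fold change below -1, against 1.45% of all genes tested. The 7 include the 6 genes chosen by the rule on the same values. Without mCHERRY replicate 3, 1 was called, and without GmWRI1 replicate 1, 3 were called. The cause of that library's higher values was not tested.

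Across the list the direction was shared. All 21 tested heat shock genes had a fitted value below 0, with a median log2 fold change of -0.66, and 17 passed an adjusted p under 0.05 in the lower direction and 0 in the higher direction (edgeR), where 14.6% of all genes tested were lower and 20.4% higher. The 17 include the 6 genes chosen by the rule on the same values. This list too was drawn up around functions seen among the lowered genes, so the count is a description only. HSP101, a disaggregase, had 104, 96.5 and 101 CPM in GmWRI1 libraries, against 146, 176 and 251 CPM in mCHERRY libraries (log2 fold change -0.91, SE 0.14, edgeR adjusted p = 1.66e-05). HSFA2, a heat shock factor that sustains the heat response, was also lower (-0.85, edgeR adjusted p = 3.36e-05). The small heat shock protein gene AT1G53540 was called lower but its groups overlapped, with 3.75, 9.24 and 3.63 CPM in GmWRI1 libraries, against 5.27, 12.2 and 25.5 CPM in mCHERRY libraries (log2 fold change -1.27, SE 0.40, edgeR adjusted p = 0.0183), and without mCHERRY replicate 3 its value was -0.62 (edgeR adjusted p = 0.212). It did not pass without GmWRI1 replicate 1 or 3 either (edgeR adjusted p of 0.0854 and 0.0579), nor with DESeq2 (adjusted p = 0.176).

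The remaining 2 chaperone-group genes belong to the endoplasmic reticulum. BIP3 (AT1G09080), the stress-induced form of the lumenal HSP70, had 2.90, 5.79 and 4.24 CPM in GmWRI1 libraries, against 19.4, 12.5 and 10.6 CPM in mCHERRY libraries. TIN1 (AT5G64510), a gene induced by the glycosylation inhibitor tunicamycin, had 4.27, 6.76 and 5.65 CPM in GmWRI1 libraries, against 11.6, 13.3 and 14.3 CPM in mCHERRY libraries. Both kept a share under 50% whichever single library was left out.

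The whole endoplasmic reticulum stress list held calls in both directions. Of 15 tested, 3 passed an adjusted p under 0.05 in the lower direction, BIP3 and TIN1 among them, and 4 in the higher direction (edgeR), near the shares of all genes tested (14.6% lower and 20.4% higher), with a median log2 fold change of 0.16. The co-chaperone gene ATERDJ3A was lower (-0.93, edgeR adjusted p = 0.000114). The calreticulin gene CRT1b was higher, with 36.5, 37.1 and 37.2 CPM in GmWRI1 libraries, against 18.1, 18.5 and 20.5 CPM in mCHERRY libraries (log2 fold change 0.97, SE 0.13, edgeR adjusted p = 3.12e-06). The disulfide isomerase gene PDIL1-2 (0.69) and the co-chaperone gene ATERDJ3B (0.56) were also higher, at edgeR adjusted p-values of 0.000139 and 8.49e-05.

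AIG2-like genes numbered 4 among the 124, and they included the pair with the lowest shares of all. AIG2 was first described as a gene induced in Arabidopsis by recognition of a bacterial avirulence protein. AT5G39730 had 5.97, 5.93 and 9.69 CPM in GmWRI1 libraries, against 37.5, 38.9 and 30.9 CPM in mCHERRY libraries (20.1% of the mCHERRY mean). AIG2L (AT5G39720) had 3.41, 3.998 and 1.62 CPM in GmWRI1 libraries, against 15.9, 14.3 and 14.6 CPM in mCHERRY libraries (20.2%). In both, the groups were separated by a wide gap.

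These genes lie side by side on the plus strand of chromosome 5, AIG2L at 15899618 to 15900667 and AT5G39730 at 15901569 to 15902958, 901 bases apart. Their coding sequences were 82.6% identical over 495 aligned bases, more than any other AIG2-like pair in the set (67.1% to 70.5%). Reads that matched several transcripts equally well were discarded upstream, so reads from identical stretches of the pair are missing from both.

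The other AIG2-like genes lie on chromosome 3 and sat at the limit of the rule. AIG2 (AT3G28930) had 25.7, 19.4 and 31.5 CPM in GmWRI1 libraries, against 51.8, 52.4 and 49.4 CPM in mCHERRY libraries. AT3G28950 had 5.55, 3.03 and 6.66 CPM in GmWRI1 libraries, against 8.21, 12.5 and 9.89 CPM in mCHERRY libraries. The gene between them, AT3G28940, is also AIG2-like and was named after its values were seen. It had 97.0, 83.5 and 104 CPM in GmWRI1 libraries, against 102, 113 and 97.1 CPM in mCHERRY libraries, and did not pass the test (log2 fold change -0.14, SE 0.10, edgeR adjusted p = 0.315). The set held 4 of the 6 AIG2-like genes with a mCHERRY mean of at least 5, where it held 1.1% of all nuclear genes at that level.

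Further defence genes included receptors and salicylate-responsive genes. WAK3 (AT1G21240), a wall-associated receptor kinase, had 59.4, 40.1 and 46.8 CPM in GmWRI1 libraries, against 165, 118 and 87.2 CPM in mCHERRY libraries. NHL25 (AT5G36970), of the family of the defence gene NDR1, had 7.17, 8.13 and 12.1 CPM in GmWRI1 libraries, against 29.4, 26.8 and 24.0 CPM in mCHERRY libraries. GRX480 (AT1G28480), a glutaredoxin induced by salicylate, had 23.04, 27.0 and 29.1 CPM in GmWRI1 libraries, against 47.2, 53.8 and 75.4 CPM in mCHERRY libraries. NHL25 had the lowest share of these at 34.2% of the mCHERRY mean, against 39.5% for WAK3 and 44.9% for GRX480.

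Receptor and resistance genes at lower levels were the cysteine-rich receptor kinase CRK12 (45.1%), the receptor-like protein RLP23 (49.8%), which senses a microbial peptide, and the NBS genes RFL1 (43.8%) and AT4G09420 (45.3%). The leucine-rich repeat genes AT5G58300 (38.4%) and AT5G66890 (46.3%) were also in the set. Of WAK3's transcript, 18.1% of 30-base words also occurred in another gene's transcript, so part of its reads may have been discarded as not unique.

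The salicylate and peptide defence list had 26 tested genes, of which 9 passed an adjusted p under 0.05 in the lower and 3 in the higher direction (edgeR), where 14.6% of all genes tested were lower and 20.4% higher. The lower calls include the 4 genes chosen by the rule, and the list's median log2 fold change was -0.20. Its calls below -1 were 6 of 26, against 1.45% of all genes tested. They comprised WAK3, NHL25, GRX480, AIG2 and a further pair outside the rule. That pair was EPS1 (-1.29, edgeR adjusted p = 0.0241) and PROPEP3 (-1.27, edgeR adjusted p = 0.00766), where PROPEP3 encodes the precursor of a danger peptide. Leaving out mCHERRY replicate 1, mCHERRY replicate 3, GmWRI1 replicate 1 or GmWRI1 replicate 3 left EPS1 short of the threshold (edgeR adjusted p of 0.062 to 0.121), as did DESeq2 (adjusted p = 0.0823). PROPEP3 had 2.39, 8.27 and 14.3 CPM in GmWRI1 libraries, against 14.1, 17.2 and 24.2 CPM in mCHERRY libraries, so its groups overlapped, and with DESeq2 it did not pass (adjusted p = 0.215). SAG101, a partner of the immune regulator EDS1, was lower (-0.82, edgeR adjusted p = 3.84e-05). In the other direction, FMO1, which makes the mobile immune signal N-hydroxypipecolate, had 46.2, 79.7 and 35.9 CPM in GmWRI1 libraries, against 6.62, 5.19 and 7.17 CPM in mCHERRY libraries (log2 fold change 3.11, SE 0.24, edgeR adjusted p = 1.38e-09). PR5, a pathogenesis-related gene, was higher as well (1.04, edgeR adjusted p = 8.19e-05).

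Detoxification and redox genes numbered 11 and included some of the most abundant. AT4G19880, of the glutathione S-transferase family, had 199, 216 and 253 CPM in GmWRI1 libraries, against 421, 462 and 458 CPM in mCHERRY libraries. GSTU25 (AT1G17180), a tau-class glutathione S-transferase, had 4.69, 6.62 and 6.06 CPM in GmWRI1 libraries, against 12.5, 12.2 and 13.3 CPM in mCHERRY libraries. The third family member, AT5G44990, stood at 43.2% of the mCHERRY mean. The set held 3 of the 32 genes of this family with a mCHERRY mean of at least 5, where it held 1.1% of all nuclear genes at that level.

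The cytochrome P450 genes of the set act on different substrates. CYP81D11 (AT3G28740), induced by foreign chemicals and by jasmonate, had 29.2, 32.0 and 28.9 CPM in GmWRI1 libraries, against 60.1, 68.4 and 72.2 CPM in mCHERRY libraries. CYP707A4 (AT3G19270), which inactivates abscisic acid, was at 46.5% of the mCHERRY mean and CYP89A6 (AT1G64940) at 39.9%. Of the CYP89A6 transcript, 30.4% of 30-base words were shared with another gene, mostly AT1G64950. The set held 3 of 63 P450 genes with a mCHERRY mean of at least 5, where it held 1.1% of all nuclear genes at that level.

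Other redox genes included an oxidoreductase with a low share. AT5G22140, of the FAD/NAD(P)-binding oxidoreductase family, had 32.9, 27.8 and 27.7 CPM in GmWRI1 libraries, against 112, 106 and 99.8 CPM in mCHERRY libraries (27.8%). A non-coding gene, AT5G22145, overlaps it by 603 bases on the opposite strand, and strand was not stated to be used in counting. GPX8 (AT1G63460), a glutathione peroxidase, had 2.90, 5.38 and 5.45 CPM in GmWRI1 libraries, against 8.33, 12.2 and 9.14 CPM in mCHERRY libraries. AT2G21640 (UPOX), a mitochondrial marker of oxidative stress, had 8.96, 5.79 and 6.66 CPM in GmWRI1 libraries, against 13.2, 14.1 and 17.5 CPM in mCHERRY libraries.

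The list of mitochondrial and xenobiotic stress genes had 17 tested, with 12 passing an adjusted p under 0.05 in the lower and 1 in the higher direction (edgeR), where 14.6% of all genes tested were lower and 20.4% higher. The 12 include 5 genes chosen by the rule on the same values, and the list's median log2 fold change was -0.28. Its 5 calls below -1, against 1.45% of all genes tested, were all in the set. GSTU24, a further tau-class transferase gene, had 222, 159 and 214 CPM in GmWRI1 libraries, against 409, 350 and 351 CPM in mCHERRY libraries (log2 fold change -0.90, SE 0.11, edgeR adjusted p = 1.27e-06). The oxophytodienoate reductase genes OPR1 (-0.85, edgeR adjusted p = 2.98e-07) and OPR2 (-0.62, edgeR adjusted p = 1.22e-05) were also lower. NDA2, an alternative NADH dehydrogenase gene, was higher (0.38, edgeR adjusted p = 0.0209), and without mCHERRY replicate 2 or 3 or GmWRI1 replicate 1 it no longer passed (edgeR adjusted p of 0.0701 to 0.178).

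Transport genes included the most abundant gene of all 124. ABCG40 (AT1G15520), a plasma membrane carrier that imports abscisic acid, had 469, 398 and 417 CPM in GmWRI1 libraries, against 1331, 1178 and 1114 CPM in mCHERRY libraries (35.4%). Its groups were separated by a wide gap. ABCC6 (AT3G13090) and ABCB21 (AT3G62150), an auxin carrier, were both close to the limit at 49.3% and 49.4%. The set held 3 of the 53 ABC transporter genes with a mCHERRY mean of at least 5, where it held 1.1% of all nuclear genes at that level.

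Transcription regulators numbered 14 and were mostly low in level, except for a pair. AT1G10585, a bHLH gene, had 129, 120 and 159 CPM in GmWRI1 libraries, against 448, 482 and 434 CPM in mCHERRY libraries (29.9%). NAC042 (AT2G43000), a NAC gene tied to leaf longevity and the phytoalexin camalexin, had 124, 107 and 109 CPM in GmWRI1 libraries, against 252, 243 and 288 CPM in mCHERRY libraries. Both sat well apart between groups. AT2G22760, another bHLH gene, was at 41.02% of the mCHERRY mean.

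MYC4 (AT4G17880), which with MYC2 and MYC3 activates jasmonate-responsive genes, had 2.90, 4.96 and 5.25 CPM in GmWRI1 libraries, against 8.33, 8.59 and 9.64 CPM in mCHERRY libraries. GAI (AT1G14920), a DELLA repressor that gibberellin removes, had 4.78, 2.34 and 4.64 CPM in GmWRI1 libraries, against 10.2, 8.27 and 8.90 CPM in mCHERRY libraries. MYB4, a repressor of phenylpropanoid genes, was at 40.3% of the mCHERRY mean and the Myb domain gene AT3G27340 at 28.9%. TPS04 (AT1G61120), the jasmonate-induced synthase of geranyllinalool, was abundant, with 171, 162 and 201 CPM in GmWRI1 libraries, against 401, 385 and 360 CPM in mCHERRY libraries.

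Of 26 tested jasmonate genes, 9 passed an adjusted p under 0.05 in the lower and 5 in the higher direction (edgeR), where 14.6% of all genes tested were lower and 20.4% higher. The lower calls include MYC4 and TPS04, and the list's median log2 fold change was -0.17. MYC4 and TPS04 were the only calls below -1, against 1.45% of all genes tested, and they were in the set by the rule. Called higher were LOX2, a lipoxygenase of jasmonate synthesis (1.38, edgeR adjusted p = 1.28e-10), and CYP94C1, which oxidizes the active hormone (1.47, edgeR adjusted p = 1.76e-05). Repressors of the JAZ family went both ways. JAZ7 (-0.71, edgeR adjusted p = 0.00707), JAZ3 (-0.45, edgeR adjusted p = 0.00124) and JAZ1 (-0.40, edgeR adjusted p = 0.000969) were lower, and JAZ10 (0.40, edgeR adjusted p = 0.0113) and TIFY7 (JAZ9; 0.31, edgeR adjusted p = 0.0169) were higher, where JAZ1, JAZ10 and TIFY7 were named after their values were seen. JAZ7 did not pass without GmWRI1 replicate 1 (edgeR adjusted p = 0.0588), JAZ10 without mCHERRY replicate 2 or GmWRI1 replicate 2 (0.0785 and 0.0792), and TIFY7 without mCHERRY replicate 2 or GmWRI1 replicate 3 (0.0999 and 0.0651). The gibberellin list had 7 tested genes with a median of -0.18, and besides GAI only the receptor gene GID1B was lower (-0.54, edgeR adjusted p = 0.00251). On the list of type-A response regulators, which restrain cytokinin signalling, ARR9 was called lower (-1.53, edgeR adjusted p = 0.0051) and the other 2 tested genes did not pass. Over all genes tested, 14.6% passed in the lower direction, and 1.45% did so with a log2 fold change below -1. With so few genes tested, nothing is read from the counts on these lists. ARR9 was near the floor, with raw counts of 8, 13 and 10 in GmWRI1 and 36, 27 and 11 in mCHERRY libraries. Without GmWRI1 replicate 1, ARR9 did not pass (edgeR adjusted p = 0.0573).

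**Figure D4:**
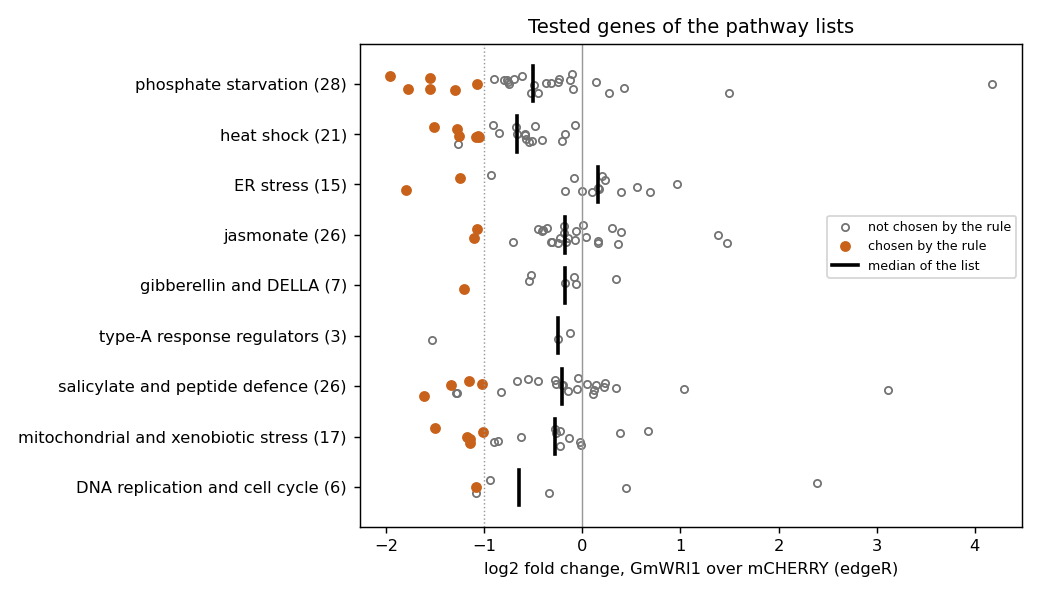
Log2 fold change (GmWRI1 over mCHERRY, edgeR) of each tested gene on the 9 pathway lists, with the number tested in brackets, genes of the set in orange and a black bar at each list's median. The medians of the phosphate starvation (-0.51), heat shock (-0.66) and cell cycle (-0.64) lists lie furthest below 0, and the median of the ER stress list lies above 0 (0.16).

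Cell wall genes were few. XTR6 (AT4G25810), a xyloglucan endotransglycosylase that cuts and joins wall polymers, had 16.6, 15.9 and 22.0 CPM in GmWRI1 libraries, against 56.1, 73.1 and 57.8 CPM in mCHERRY libraries (29.1%). LRX3, a leucine-rich repeat extensin, was at 43.6% of the mCHERRY mean. The glycosyltransferase genes AT2G03360, AT2G31990 and AT5G01250 were at 41.2%, 47.2% and 44.6%.

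Cell cycle genes were represented by CDKB2;2 (AT1G20930), a mitotic kinase gene that had 2.90, 1.38 and 3.23 CPM in GmWRI1 libraries, against 5.02, 3.89 and 7.41 CPM in mCHERRY libraries. Of the 19 replication and cell cycle genes, 6 were tested. Of these, 3 passed an adjusted p under 0.05 in the lower and 1 in the higher direction (edgeR). Over all genes tested, 14.6% were lower and 20.4% higher. Calls with a log2 fold change below -1 numbered 2, against 1.45% of all genes tested. The lower calls include CDKB2;2, chosen by the rule. CDKB2;1 (-0.94, edgeR adjusted p = 0.0269) and CTF7 (-1.08, edgeR adjusted p = 0.0103) were lower. CTF7 had raw counts of 29, 20 and 7 in GmWRI1 and 36, 30 and 23 in mCHERRY libraries. MCM3, a subunit of the replicative helicase, was higher (2.39, edgeR adjusted p = 0.00115). Its raw counts were 40, 23 and 8 in GmWRI1 and 8, 1 and 1 in mCHERRY libraries. Without mCHERRY replicate 2 or 3 or GmWRI1 replicate 1 or 3, CDKB2;1 did not pass (edgeR adjusted p of 0.0532 to 0.16), nor with DESeq2 (adjusted p = 0.0523).

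One cyclin family gene owed its place to a pair of libraries. AT5G48640 had 8.45, 10.1 and 37.4 CPM in GmWRI1 libraries, against 39.3, 45.1 and 41.5 CPM in mCHERRY libraries. GmWRI1 replicate 3 thus lay next to the mCHERRY libraries. The share was 22.1% without that library, and 56.5% and 54.6% without GmWRI1 replicates 1 and 2.

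Among the metabolic genes, PFK7 (AT5G56630), a phosphofructokinase of glycolysis, had 55.3, 43.6 and 45.4 CPM in GmWRI1 libraries, against 103, 94.2 and 99.8 CPM in mCHERRY libraries (48.6%). ACA2 (AT2G28210), an alpha carbonic anhydrase, had 1.45, 1.52 and 2.83 CPM in GmWRI1 libraries, against 7.84, 12.6 and 5.19 CPM in mCHERRY libraries (22.6%). Organelle RNA-processing and repeat proteins were AT2G17670 (27.1%), the chloroplast editing factor OTP86 (42.4%) and EMB2744 (37.9%), against 194 such repeat genes with a mCHERRY mean of at least 5. Ubiquitin-related genes included the F-box genes AT2G17830 (45.02%) and AT4G11590 (44.6%), and the RING or U-box genes AT2G26135 and AT2G45920. MMD1 was counted with them only from its product name, RING/FYVE/PHD zinc finger superfamily protein. AT2G45920 had 83.3, 65.1 and 83.4 CPM in GmWRI1 libraries, against 159, 174 and 199 CPM in mCHERRY libraries.

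Genes without a known role were also in the set, and 9 of the 124 (7.26%) are annotated as uncharacterized. Of nuclear genes with a mCHERRY mean of at least 5, 3.79% are so annotated. AT1G56660, a MAEBL domain gene, had 66.2, 87.4 and 86.8 CPM in GmWRI1 libraries, against 191, 246 and 251 CPM in mCHERRY libraries. AT5G47740, an adenine nucleotide hydrolase-like gene, had 48.6, 46.7 and 48.3 CPM in GmWRI1 libraries, against 99.2, 113 and 132 CPM in mCHERRY libraries. AT4G08555 stood at 29.2% of the mCHERRY mean. AT1G48720, a retrotransposon-like gene, stood at 28.1%, and 48.0% of its 30-base words were shared with other genes, the largest share in the set.

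Position on the chromosomes linked few of these genes. Only 4 of the 124 were next to another member among the genes of the table, in 2 pairs. Beside the AIG2L pair, the HSP20-like gene AT1G59860 (chromosome 1, 22031343 to 22032250, plus strand) lies 62 bases from AT1G59865 (22032313 to 22033297, minus strand), an uncharacterized gene with 0.939, 2.48 and 1.82 CPM in GmWRI1 libraries, against 4.41, 4.22 and 6.92 CPM in mCHERRY libraries. Overlap with another annotated gene was seen for 25.8% of the 124 and for 33.2% of nuclear genes with a mean of at least 5. Of 25 overlapping partners that were tested, 0 were in the set. By edgeR, 0 were called lower with a log2 fold change below -1, against 1.45% of all genes tested, so nothing is read from it. With no fold limit, partners passed an adjusted p under 0.05 in both directions, more often the lower (edgeR). Over all genes tested, 14.6% passed in the lower direction and 20.4% in the higher. The lower partners were VAMP725 (-0.87, edgeR adjusted p = 4.08e-06), AT1G10580, GPX6, D6PKL2, RPT3, MES18, AT5G59540 and SNRK2.3. The higher partners were AT1G15410 (1.79, edgeR adjusted p = 1.09e-05), bZIP16 and AT4G13170. Whether shared reads had a part in these values was not tested. Where strand was not used in counting, reads of overlapping stretches cannot be told apart.

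In structure, the genes were short, with a median transcript of 1394 bases, against 1797 bases for nuclear genes with a mCHERRY mean of at least 5. A single exon was annotated in 28 of 124 (22.6%), against 10.6%. Of the 124 transcripts, 6 shared more than 10% of their 30-base words with another gene.

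The AW Box, CNTNGNNNNNNNCG, is the motif bound by WRINKLED1. It was found within 500 bases downstream of the start in 42 of the 124 genes (33.9%, 95% Wilson interval 26.1% to 42.6%), against 42.5% of the 15397 nuclear genes of the table. Upstream it was found in 18 of 124 (14.5%), against 19.8%. The CNC Box, CNCCNCC, was found downstream in 45.2% of the 124, against 51.7%. P1BS was found upstream in 22 of 124 (17.7%, 12.02% to 25.4%), against 10.5%, and the element GAANNTTC in 23.4%, against 19.1%. Of the 22 genes with P1BS upstream, 4 were the phosphate-starvation genes shown above, and the share without them was not compared. The W Box, TTGACC or TTGACT, bound by WRKY factors, was upstream in 48.4%, against 45.5%, and the G Box, CACGTG, in 12.9%, against 10.9%. Both strands were searched, a match is a description of the letters only, and the intervals cover counting error only. They are not adjusted for the number of motifs and windows compared.

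**Figure D5:**
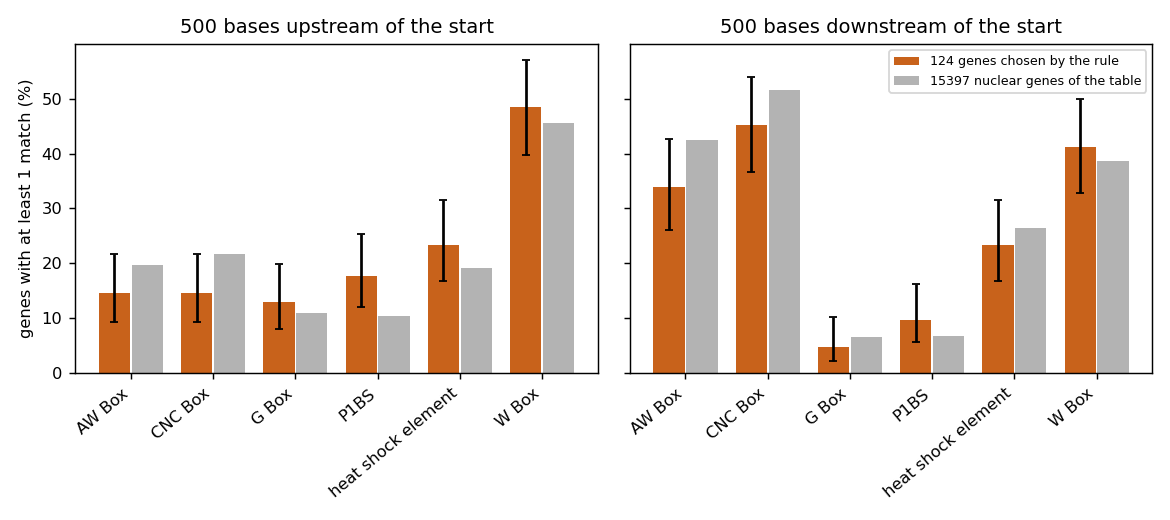
Share of genes with at least 1 match to each motif in the 500 bases upstream (left panel) and downstream (right panel) of the start, for the 124 genes (orange, bars show 95% Wilson intervals) and all 15397 nuclear genes of the table (grey). P1BS upstream stands at 17.7% of the 124 genes against 10.5%, and the AW Box downstream at 33.9% against 42.5%. Of the 22 genes with P1BS upstream, 4 are phosphate-starvation genes.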

How the data were processed

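RNA-seq covered 6 protoplast libraries, 3 per group, made from total RNA with PCR enrichment. Ribosomal reads were removed and the rest aligned by the authors with Bowtie 0.12.7 to TAIR10 primary transcripts, where only unique best hits were kept. Use of strand was not given in the sources used here. The deposited counts are raw reads per primary transcript. The line that names no gene (39.4% to 63.3% of a file) did not enter library sizes or any test. A normalized signal table of 15541 transcripts, made by the authors with edgeR 3.10.5, was the other file, in which, over the 124 genes, each library's values equal its counts divided by 1 constant, to rounding. It chose and describes the 124 genes.

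The test on counts was edgeR 4.0.16 under R 4.3.3 (filterByExpr at a minimum count of 10, TMM, glmQLFit and glmQLFTest, group only), with Benjamini-Hochberg adjusted p over 14762 genes, a limit of 0.05 and a log2 fold change of 1. DESeq2 1.42.0 and the exact test were alternatives. Standard errors were derived from the F statistic. Scripts were tested on simulated data. Sequences and positions came from RefSeq TAIR10.1, in which all 124 genes were found.

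The 124 genes, the 9 lists, the markers and the motifs were chosen with earlier results of these data known. The lists hold the wider pathways of functions seen among the lowered genes. Families and roles were read from annotated products after the values were seen. Named were genes on a list, the 12 most abundant, the 12 with the lowest ratio, members sharing a family or adjacent on a chromosome, genes at the limits, and up to 4 list genes at each extreme. Others named by their share were chosen after their values were seen. No protein table was used here.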

Additional observations from a re-analysis of the deposited data

How the results depend on the processing

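The rule chose 106 genes with library-size CPM, all among the 124, 125 with DESeq2 size factors (123 shared), 129 when overlap was allowed, 213 with a least mean of 2 and 71 with a least mean of 10. Leaving out 1 library gave 117 to 183 genes, of which 95 to 113 were shared. Genes called lower numbered 214 in the edgeR test, 183 with DESeq2, 272 with no expression filter, 215 with the exact test and 188 to 276 with 1 library left out. On the lists, 32 genes were called lower, most of them among the 124, where 1.45% of all genes tested were called lower. The lists had 22 to 36 with 1 library left out, while the heat shock list had 1 to 9 and the phosphate list 5 to 6. With 1 library left out, 11 to 29 of the 124 genes stood at 50% or more of the mCHERRY mean, and 15 did so with library-size CPM.

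Same-numbered libraries did not deviate together (correlations of 0.10, -0.0075 and 0.043), so the replicate number was not taken as pairing. With every GmWRI1 library required to be under 50% of its same-numbered mCHERRY library (replicate block), the rule gave 31 genes. The fit with the replicate block called 220 genes lower, 6 phosphate and 5 heat shock genes among them.

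Low counts limit the precision of the 53 genes with a mCHERRY mean under 10 CPM, where a library held as few as 6 reads. Reads were PCR-enriched, and molecular identifiers were not stated. P-values measure only the spread between these 6 libraries.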
